A study of Mus musculus with 6 samples.

Results

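The follistatins, activin subunits and activin receptors were examined in RNA sequencing of the arcuate nucleus (ARC). The 10 genes were taken by symbol from the 24015 symbols counted. They are *Fst*, *Fstl1*, *Fstl3*, *Fstl4* and *Fstl5* (follistatin and its relatives), *Inhba* and *Inhbb* (activin subunits), and *Acvr1b*, *Acvr2a* and *Acvr2b* (activin receptors). *Fst* was chosen by its higher level in the mutants of this same comparison, so its values are a description and no test of it is read. The others were chosen as members of these families, with earlier results of these data known. Of the 10 genes, 9 had enough counts to enter the test across genes, *Fst* among them. *Fst* was above the filter, near 0.669 CPM, in all 6 samples, the controls included.

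The study asked how gene expression in the ARC differs when estrogen receptor alpha (ERα, encoded by *Esr1*) is lost from the medial basal hypothalamus. Microdissected ARC came from adult females of a Mixed Background (CD-1, 129P2, C57BL/6) per the labels, while the study's methods name only CD-1 and 129P2 for this line. The 3 controls were *Esr1* fl/fl and the 3 mutants were *Esr1* fl/fl with *Nkx2-1*-Cre, named *Esr1* Nkx2-1Cre. Both genotypes carried the floxed alleles and only the mutants carried Cre, whose *Nkx2-1* promoter is active across the medial basal hypothalamus and in other tissues, so the loss of ERα was not limited to a single type of ARC neuron. The controls had no Cre, so Cre itself and the loss of ERα cannot be told apart. The labels do not say whether a sample was pooled from several animals. Totals on genes were 14747944, 17877137 and 14046798 counts in controls 1, 2 and 3, and 11792440, 15741681 and 15166356 counts in mutants 1, 2 and 3. Levels are in CPM (counts per 1e+06 counts of the library) after TMM scaling, which corrects for differences in the makeup of the libraries.

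Activins are dimers of inhibin beta subunits and belong to the TGF-beta family. They bind type II receptors, which recruit and phosphorylate type I receptors, and these activate SMAD2 and SMAD3, which join SMAD4 and enter the nucleus. Follistatin is a secreted protein that binds activins and keeps them from their receptors, and activin and follistatin are best known in the reproductive axis for their opposite actions on pituitary FSH.

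*Esr1*, the targeted gene, had 64.5, 57.5 and 48.5 CPM in controls 1, 2 and 3, against 11.8, 9.55 and 7.06 CPM in mutants 1, 2 and 3. Every mutant lay below every control, which fits the genotypes in the labels. The log2 fold change of mutant over control was -2.59 (SE 0.18, adjusted p = 0.000884 by edgeR's quasi-likelihood test over 15236 genes). Known ARC markers were present in every sample, among them *Agrp*, which ranged from 26.3 CPM in control 3 to 40.0 CPM in mutant 3. Markers of the neighbouring ventromedial nucleus were present as well, with a summed level from 67.2 CPM in control 1 to 193 CPM in mutant 3. These 4 markers did not move together: *Tac1* was lower in each mutant, with 50.9, 60.0 and 40.1 CPM in controls 1, 2 and 3 and 37.0, 28.1 and 38.6 CPM in mutants 1, 2 and 3, while the means of *Fezf1*, *Nr5a1* and *Cbln1* were higher in mutants with overlapping groups.

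*Fst* encodes follistatin and lies on chromosome 13 at 115242470 to 115249159, minus strand, in build NCBIM37. Its level was 1.34, 1.98 and 1.36 CPM in controls 1, 2 and 3, from 20, 34 and 19 counts. It was 25.7, 6.41 and 10.3 CPM in mutants 1, 2 and 3, from 312, 102 and 155 counts. Each mutant was above each control, and the groups were separated by a gap, with the lowest mutant 3.24 times the highest control. The mutants were far more spread than the controls. The highest mutant had 4.02 times the level of the lowest, against 1.48 times among the controls. The controls averaged 1.56 ± 0.362 CPM and the mutants 14.2 ± 10.2 CPM (SD, n = 3 each), a ratio of 9.07. Without mutant 1, whose level was the highest, the ratio of means was 5.36. In bulk tissue, fewer cells of a type and less RNA per cell cannot be told apart, and the same holds for more of either.

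*Fstl1* encodes a secreted glycoprotein with a follistatin-like domain. Its level was 123, 89.0 and 93.4 CPM in controls 1, 2 and 3, against 141, 120 and 109 CPM in mutants 1, 2 and 3. Control 1 lay above mutants 2 and 3, so the groups overlapped. Mutant over control gave a log2 fold change of 0.28 (SE 0.14, 95% interval -0.03 to 0.59), and edgeR's adjusted p was 0.603. The value was 0.44 without control 1 and 0.18 without mutant 1. *Fstl3*, which encodes another secreted binder of activin, was close to the limit of these libraries. It had 3, 3 and 2 counts in controls 1, 2 and 3 and 5, 8 and 5 counts in mutants 1, 2 and 3, while 3 counts corresponded to between 0.175 and 0.248 CPM. Each mutant value was above each control value, but *Fstl3* was the member that did not enter the test, and *Prss57* overlaps it on the opposite strand. *Fstl1*, *Fstl4* and *Acvr2a* also have an annotated gene on the opposite strand (*Gm15724*, *Gm11186* and *Orc4*), and unless the counting used strand, reads from the overlaps cannot be assigned to either gene.

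*Fstl4* and *Fstl5* encode larger follistatin-like proteins. *Fstl4* ranged from 19.2 CPM in control 1 to 29.8 CPM in control 2, so the extremes of all 6 samples were both controls. *Fstl5* ranged from 75.3 CPM in mutant 2 to 110 CPM in control 2, and its groups overlapped too. Fitted log2 fold changes were -0.06 (95% interval -0.47 to 0.36) for *Fstl4* and -0.17 (95% interval -0.44 to 0.09) for *Fstl5*. The sign for *Fstl4* turned when control 2 or mutant 1 was left out, to 0.10 and 0.05. For *Fstl5* the value was -0.03 without control 2.

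**Figure D1:**
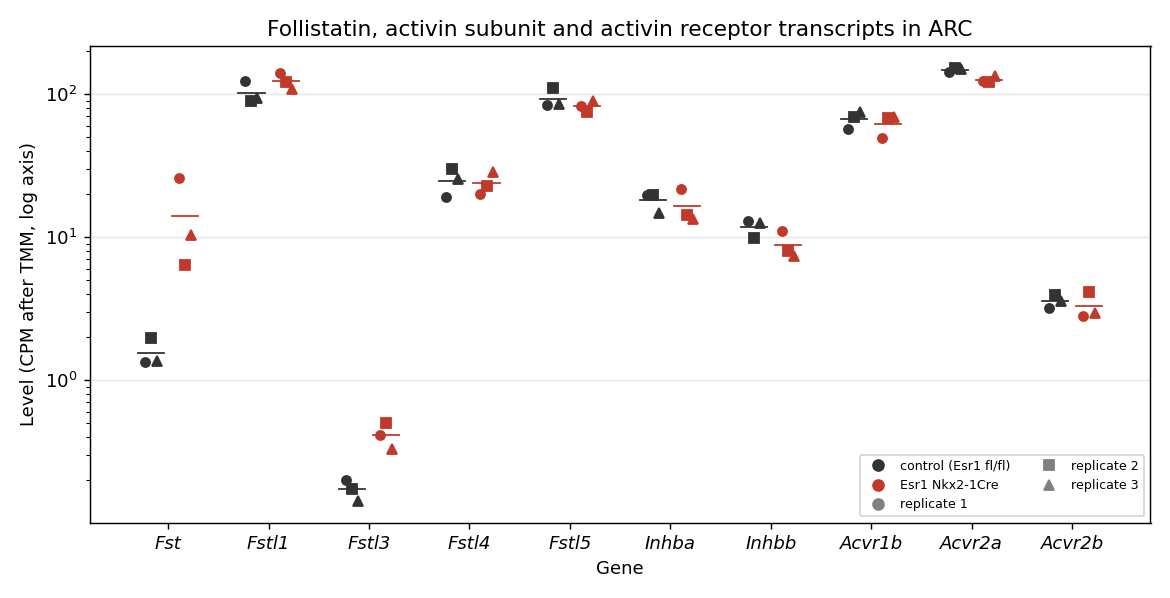
Level of each of the 10 genes in each sample, in CPM after TMM scaling on a log axis, with controls in black, *Esr1* Nkx2-1Cre mutants in red, a marker shape for each replicate number and short lines at the group means. *Fst*, which was chosen by this difference, runs from 1.34 to 1.98 CPM in controls and from 6.41 to 25.7 CPM in mutants, *Acvr2a* is lower in each mutant than in each control, and *Fstl3* rests on 2 to 8 counts per sample.

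*Inhba* encodes the subunit of activin A. Its level was 19.8, 19.8 and 14.8 CPM in controls 1, 2 and 3, and 21.5, 14.4 and 13.5 CPM in mutants 1, 2 and 3. Mutant 1 was the highest of all samples and mutant 3 the lowest, so the mutants spanned the controls. *Inhbb*, the subunit of activin B, had 12.9, 9.89 and 12.5 CPM in controls 1, 2 and 3, and 11.1, 7.98 and 7.39 CPM in mutants 1, 2 and 3. Mutants 2 and 3 lay below all controls, while mutant 1 lay among them. For *Inhba* the log2 fold change was -0.15 (SE 0.20, 95% interval -0.59 to 0.29, edgeR adjusted p = 0.881). It was -0.38 without mutant 1 and -0.02 without mutant 3. For *Inhbb* it was -0.42 (SE 0.19, 95% interval -0.85 to 0.01, edgeR adjusted p = 0.567).

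The level of *Fst* relative to these subunits, each as CPM per kb of exon, was 0.0383, 0.0596 and 0.0486 in controls 1, 2 and 3, where the subunits are summed. It was 0.711, 0.261 and 0.450 in mutants 1, 2 and 3. *Fst* transcripts per length were thus below the summed subunits in all 6 samples, and the order of the mutants was that of *Fst* itself. Because *Fst* was selected on its mutant level, this ratio is also a description.

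*Acvr2a* encodes a type II receptor that binds activins. It had 143, 152 and 149 CPM in controls 1, 2 and 3, and 123, 122 and 134 CPM in mutants 1, 2 and 3. Every mutant lay below every control, and both groups were tight, with standard deviations of 4.63 CPM in controls and 7.09 CPM in mutants (n = 3 each). Its log2 fold change was -0.23 (SE 0.08, 95% interval -0.40 to -0.06). The unadjusted p of edgeR's test across all genes was 0.0134 and the adjusted p was 0.391, which did not pass the threshold of 0.05. The level counted on *Orc4*, which overlaps *Acvr2a*, was 33.8 ± 6.10 CPM in controls against 33.0 ± 3.04 CPM in mutants (SD, n = 3 each).

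*Acvr2b*, which encodes the other type II receptor for activins, was scarce, with levels from 2.81 CPM in mutant 1 to 4.15 CPM in mutant 2. *Acvr1b* encodes ALK4, a type I receptor of activins, and ranged from 49.3 CPM in mutant 1 to 75.4 CPM in control 3. The groups overlapped for both receptors. The log2 fold change was -0.12 (95% interval -0.68 to 0.44) for *Acvr2b* and -0.11 (95% interval -0.45 to 0.23) for *Acvr1b*, and the latter turned to 0.03 without mutant 1. For *Acvr2b* the value was -0.02 without mutant 1 and -0.32 without mutant 2.

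*Fst* is left out of the counts of calls, since it was selected on this comparison. Of the 8 other members tested, 0 passed edgeR's adjusted threshold, beside 0.118% of all genes tested, or 0.0591% in each direction. DESeq2 and limma voom also called 0 of the 8, beside 1.26% and 0.0919% of all genes they tested. At an unadjusted p under 0.05 the counts among these 8 were 1 by edgeR, 1 by DESeq2 and 2 by limma voom. The shares over all genes at that p were 8.85%, 7.43% and 9.33%. The groups did not overlap for 1 of these 8, *Acvr2a*, which was lower in the mutants. Over all genes tested, 7.88% had every mutant above every control and 7.88% had every mutant below. For a single gene, an exact two-sided permutation test of 3 against 3 samples cannot go below 0.1. The median log2 fold change of the 8 was -0.13, and that of all genes tested was 0.004.

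Levels of different genes were compared per kb of exon. In controls, *Acvr2a* was the most abundant with 26.1 ± 0.815 CPM per kb, followed by *Fstl1* (20.7 ± 3.73), *Acvr1b* (20.5 ± 2.90) and *Fstl5* (15.2 ± 2.40). *Fstl1* and *Acvr1b* did not differ beyond their spread, and the ranges of *Acvr1b* and *Fstl5* overlapped as well. Below them stood *Inhba* (9.17 ± 1.44 CPM per kb), *Fstl4* (5.66 ± 1.22), *Inhbb* (2.77 ± 0.386), *Acvr2b* (2.05 ± 0.211), *Fst* (0.581 ± 0.135) and *Fstl3* (0.0707 ± 0.0118), with no overlap between neighbours in that order (all SD, n = 3). *Fst* was thus the ninth of 10 in controls. In mutants its 5.27 ± 3.80 CPM per kb (SD, n = 3) overlapped the ranges of *Inhba*, *Fstl4* and *Inhbb*. Per length, *Inhba* exceeded *Inhbb* in every sample, by 2.56 times in control 3 up to 4.31 times in control 2. *Acvr2a* exceeded *Acvr2b* by 9.04 times in mutant 2 up to 14.1 times in mutant 3.

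A list of 50 other genes of the pathway and its relatives was examined by role. It was written with earlier results of these data known, so its counts of calls are a description. Of the 50 genes, 40 were tested. EdgeR called 0 of them higher and 1 lower in the mutants, beside 0.0591% of all genes in each direction. At an unadjusted p under 0.05 the count was 4 by edgeR, 5 by DESeq2 and 5 by limma voom, beside shares over all genes of 8.85%, 7.43% and 9.33%. After adjustment DESeq2 called 2 and limma voom called 0, beside 1.26% and 0.0919% of all genes. Each mutant was above each control for 3 genes (7.50%) and below for 5 (12.5%), beside the 7.88% in each direction over all genes. The median log2 fold change was 0.02.

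Among the other ligands, 3 of 8 were tested. *Inha*, the inhibin alpha subunit that pairs with beta subunits to form inhibins, had means of 6.89 CPM in controls and 8.29 CPM in mutants, and *Gdf11*, a ligand that also uses activin type II receptors, had 30.7 and 28.6 CPM. The groups overlapped for both. *Inhbc*, *Inhbe*, *Mstn*, *Gdf1* and *Gdf3* were too low to test, and *Gdf1* had 0 counts in all 6 samples. Of the other receptors and co-receptors, 6 of 8 were tested. *Bmpr2*, a type II receptor for BMPs, had a mean of 1159 CPM in controls and 977 CPM in mutants with overlapping groups. *Acvr1c*, which encodes ALK7, had 84.0 and 85.7 CPM. *Tgfbr2*, the type II receptor for TGF-beta, had 28.6, 13.03 and 24.0 CPM in controls 1, 2 and 3 and 30.7, 30.03 and 30.2 CPM in mutants 1, 2 and 3. Its groups did not overlap, with control 2 standing low, and edgeR's adjusted p was 0.648.

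Of 5 extracellular or membrane antagonists, 3 were tested. *Bambi*, a pseudoreceptor, had means of 7.49 CPM in controls and 9.54 CPM in mutants, and *Wfikkn2*, which encodes a secreted binder of GDF11 and myostatin, had 1.41 and 2.29 CPM, the latter led by mutant 2. Their groups overlapped. Of 5 SMAD transducers, 4 were tested, and *Smad2* was lower in each mutant, with 189, 196 and 192 CPM in controls 1, 2 and 3 and 174, 175 and 171 CPM in mutants 1, 2 and 3. The log2 fold change of *Smad2* was -0.15 (SE 0.07, edgeR adjusted p = 0.571). *Smad4*, the common partner, had means of 57.7 CPM in controls and 60.0 CPM in mutants.

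All 9 intracellular inhibitors of SMAD signalling were tested and edgeR called 0 of them, with 2 at an unadjusted p under 0.05, beside 8.85% of all genes, while DESeq2 called 1 and limma voom called 0, beside 1.26% and 0.0919%. *Skil*, which encodes the SMAD co-repressor SnoN, had 161, 164 and 165 CPM in controls 1, 2 and 3 and 124, 137 and 130 CPM in mutants 1, 2 and 3. Controls were within a few CPM of each other and each mutant lay below them. The log2 fold change was -0.32 (SE 0.07), with an adjusted p of 0.163 by edgeR and 0.0286 by DESeq2, the lowest of its 12 alternatives, which ranged up to 0.431. *Smurf2*, an E3 ubiquitin ligase, was also lower in each mutant, with means of 159 CPM in controls and 142 CPM in mutants (edgeR adjusted p = 0.577). *Tgif1*, another co-repressor, was higher in each mutant, with means of 6.11 and 8.59 CPM (edgeR adjusted p = 0.456). *Ski*, the relative of *Skil*, had means of 162 and 148 CPM with overlapping groups.

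*Pmepa1*, one of 5 targets of TGF-beta or activin signalling on the list and itself an inhibitor of SMAD activation, was the gene that edgeR called. It had 68.9, 82.8 and 74.1 CPM in controls 1, 2 and 3, and 44.6, 45.3 and 51.2 CPM in mutants 1, 2 and 3. Every mutant lay well below every control. The log2 fold change was -0.68 (SE 0.10, 95% interval -0.90 to -0.46), with an adjusted p of 0.0421 by edgeR, just past the threshold. The call was lost with limma voom (adjusted p = 0.0724) and, in edgeR's test, without control 3 (0.0991), mutant 1 (0.0927), mutant 2 (0.222) or mutant 3 (0.107), while the log2 fold change stayed between -0.75 and -0.60 in all 12 alternatives. *Junb*, an immediate early gene, was higher in each mutant, with 2.81, 0.756 and 1.94 CPM in controls 1, 2 and 3 and 3.80, 3.20 and 3.86 CPM in mutants 1, 2 and 3, and edgeR's adjusted p was 0.507. *Fshb*, the pituitary target of activin, had 14.8, 0.0582 and 6.10 CPM in controls 1, 2 and 3 and 7.26, 4.90 and 4.66 CPM in mutants 1, 2 and 3. The summed pituitary markers were likewise near 0 in control 2.

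All 10 proteins with follistatin-type domains outside the family were tested, and edgeR, DESeq2 and limma voom called 0 of them, beside 0.118%, 1.26% and 0.0919% of all genes. EdgeR had 0 of the 10 at an unadjusted p under 0.05, beside 8.85%. *Sparc* and *Sparcl1*, matricellular proteins, had the highest levels per kb of the whole list, and *Sparc* averaged 1997 ± 468 CPM in controls against 2061 ± 413 CPM in mutants (SD, n = 3 each). *Smoc1* was lower in each mutant, with means of 25.0 and 21.3 CPM (edgeR adjusted p = 0.571).

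**Figure D2:**
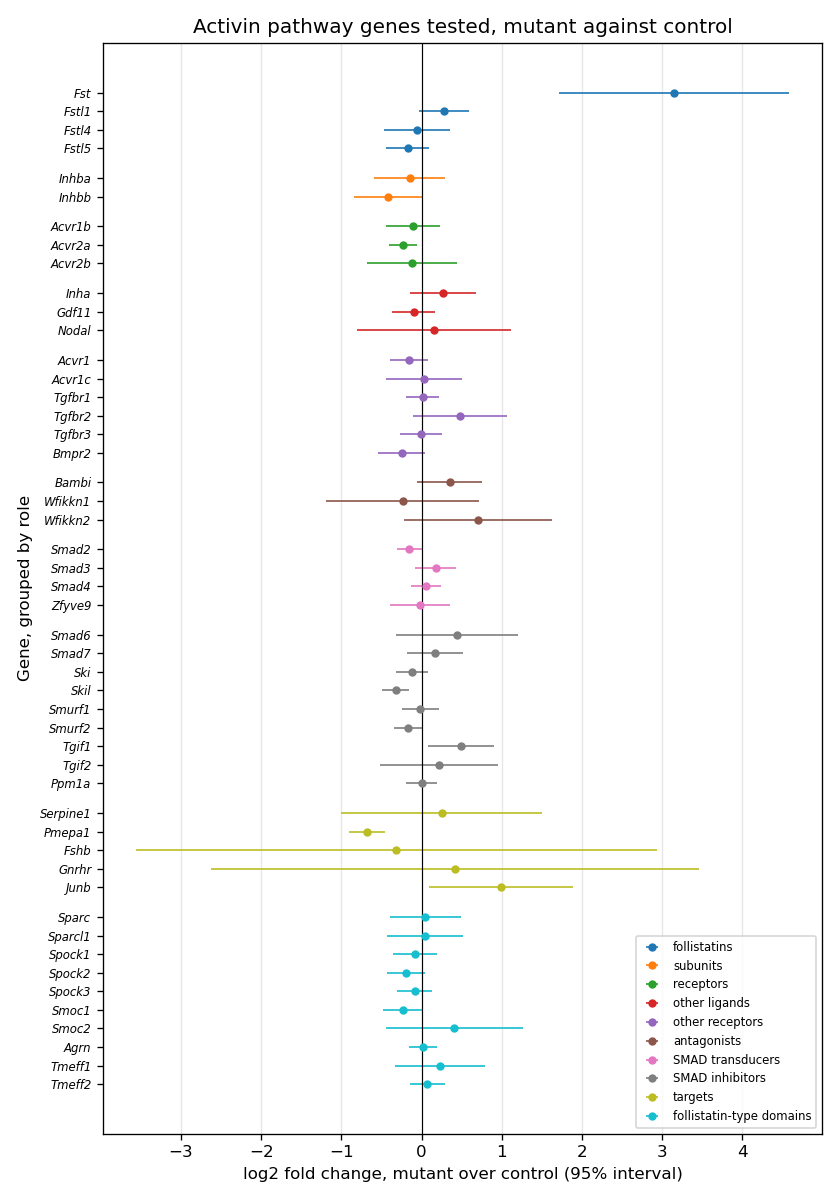
Log2 fold change of mutant over control for the 9 members tested and the 40 tested genes of the pathway list, grouped by role, where points are edgeR estimates from 3 mutants and 3 controls and bars are 95% intervals. *Fst* at 3.15 was chosen by this difference, *Pmepa1* at -0.68 was the listed gene past the adjusted threshold, and the wide bar of *Fshb* goes with its near absence from control 2.

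Markers of some cell types, ARC neurons among them, differed between the same samples as *Fst*. All 9 oligodendrocyte markers were higher in each mutant, and edgeR called 1 of them, *Cldn11*, beside 7.88% and 0.118% of all genes tested. Their summed level was 780, 1219 and 649 CPM in controls 1, 2 and 3 and 1745, 1650 and 1570 CPM in mutants 1, 2 and 3, with no marker at 0. The 6 microglia markers summed to 138, 153 and 138 CPM in controls 1, 2 and 3 and 177, 183 and 186 CPM in mutants 1, 2 and 3, led by *Csf1r*, and 2 of the 6 were higher in each mutant than in each control, beside 7.88% of all genes. The 10 markers of ARC neurons summed to 1080, 1072 and 1019 CPM in controls 1, 2 and 3 and 1634, 1120 and 1222 CPM in mutants 1, 2 and 3, led by *Cartpt*. Of these 10, 3 were higher in each mutant and 1 was lower, *Slc6a3*, beside 7.88% of all genes in each direction. EdgeR called *Slc6a3*, beside 0.0591% of all genes called lower. Like *Fst*, the ARC sum and *Kiss1* were highest in mutant 1, where *Kiss1* had 9.49 CPM against 3.64 and 2.93 CPM in mutants 2 and 3. Of the same 10 markers, *Agrp* was highest in mutant 3 (40.0 CPM, against 39.0 CPM in mutant 1) and *Slc6a3* in control 3 (27.7 CPM). *Tbx3* was level in control 1 and mutant 1 (274 CPM in both), and the others were highest in mutant 1. The paper describes *Kiss1* as repressed by estrogen signaling, so the ARC sum is not a count of cells. Whether these cell types have a part in the levels of *Fst*, *Acvr2a* or *Pmepa1* was not tested.

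The summed level of pituitary and pars tuberalis markers was near 0 in control 2 only. The 9 genes summed to 779, 6.17 and 510 CPM in controls 1, 2 and 3 and 603, 534 and 476 CPM in mutants 1, 2 and 3, led by *Cga*. *Gh* had 0 counts in controls 1 and 2 and mutants 1 and 2, and *Prl* had 0 counts in control 2 and mutant 3. *Fst* in control 2 was 1.98 CPM, the highest of the controls. Whether pituitary tissue has a part in the level of *Fst* was not tested. Tanycyte markers, led by *Scn7a*, summed to 1409, 431 and 764 CPM in controls 1, 2 and 3 and 1656, 1260 and 1208 CPM in mutants 1, 2 and 3, and the groups overlapped. The sums overlapped as well for neurons in general (*Snap25* the most abundant), the ventromedial nucleus (*Cbln1*), oligodendrocyte precursors (*Pdgfra*), astrocytes (*Slc1a3*), endothelium (*Flt1*), mural cells (*Rgs5*), meningeal fibroblasts (*Dcn*) and ependyma (*Foxj1*).

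The nearest tested genes to *Fst*, taken among protein-coding genes whose symbol had a single annotated match, had overlapping levels in the genotypes. *Ndufs4*, 64168 bases away, had 62.7 ± 5.08 CPM in controls and 60.9 ± 4.72 CPM in mutants, and *Arl15* at 294801 bases on the same side had 22.7 ± 0.231 and 21.9 ± 1.01 CPM. On the other side, *Mocs2* at 359293 bases had 81.0 ± 6.60 and 77.7 ± 5.17 CPM, and *Itga2* at 376965 bases had 7.74 ± 3.34 and 9.22 ± 1.36 CPM (all SD, n = 3). The groups overlapped for each, and edgeR's adjusted p was between 0.871 and 0.944.

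The genes whose pattern over the 6 samples was most like that of *Fst* were found by Pearson's r of log2(CPM + 0.5) over 15235 genes, a description that largely carries the genotype difference used to choose *Fst*. Among the highest were *5730420D15Rik* (r = 0.999), *Cd48* (r = 0.996), *Cyp2j12* (r = 0.992) and *Aifm1* (r = 0.990). These shared the order of the mutants, with mutant 1 highest and mutant 2 lowest. *5730420D15Rik*, *Cd48* and *Cyp2j12* rested on 3 to 22 counts per sample. The lowest r were those of *Ptchd1* (-0.987), *F2r* (-0.985), *Usp37* (-0.982), *Zfp647* (-0.982) and *Slc12a3* (-0.978). *Ptchd1* had 108, 96.0 and 107 CPM in controls 1, 2 and 3 and 64.2, 76.8 and 74.9 CPM in mutants 1, 2 and 3. Among the other members, r with *Fst* ran from -0.83 for *Acvr2a* to 0.67 for *Fstl1*. With each genotype's mean removed, r was -0.01 for *Acvr2a* and 0.31 for *Fstl1*, and it ran from -0.68 for *Acvr1b* to 0.79 for *Inhba*. *Fst* varied little in controls (1.34 to 1.98 CPM), so these r rest mostly on the 3 mutants and show no link between genes.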

How the data were processed

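Total RNA from microdissected ARC was amplified and sequenced as single-end 50 bp reads. The authors mapped the reads with TopHat2 (2.1.0 in the submitters' processing notes), obtained gene counts with HTSeq 0.6, and the raw counts were deposited. Whether the counting used strand is not given in the sources used here, so the counts of genes that overlap on opposite strands are uncertain. The sources differ on the name of the build. Positions and exon lengths are from GENCODE for NCBIM37, matched by symbol, and levels per kb depend on these gene models.

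The members and lists were chosen with earlier results of these data known. Genes to name were, beside the members and *Esr1*, the 2 most abundant of each role and those past the threshold. The rule also took up to 4 per role whose groups did not overlap, and the 5 genes most and least like *Fst*. It further took the 2 tested protein-coding genes on either side of *Fst*, and the most abundant marker of each list. Some genes that this rule takes are not reported here. *Agrp*, *Kiss1*, *Slc6a3*, *Gh*, *Prl*, *Tac1*, *Fezf1*, *Nr5a1*, *Cldn11*, *Prss57*, *Gm15724*, *Gm11186* and *Orc4*, and the genes named as too low to test, were added after their values were seen.

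Samples were grouped by the genotype in the labels. Counts were tested with edgeR 4.0.16 in R 4.3.3 (quasi-likelihood, robust dispersions, TMM, default filter near 0.669 CPM) on all genes, with Benjamini-Hochberg adjustment over the 15236 genes passing the filter and a threshold of 0.05. Alternatives were RLE scaling, DESeq2 1.42.0, voom in limma 3.58.1, filters asking for 1 count in some sample or 10 in every sample, a replicate block, and each sample left out in turn. Levels were repeated with plain CPM. The tests were tested in a single run of simulated data, with more changed genes than edgeR called here and no block effect. In that run, edgeR with and without the block, DESeq2 and limma voom each exceeded the threshold in their share of false calls. DESeq2 had the largest share. A single run does not give the spread of these shares. Chi-square per degree of freedom between replicates was at least 6.90, so no replicates agreed within sampling noise. Floors of 3 counts cover counting error only, since amplified reads lacking molecular identifiers do not stand for separate molecules.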

Additional observations from a re-analysis of the deposited data

How the results depend on the processing

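Over the 55 tested genes other than *Fst* that the naming rule takes, with up to 12 alternatives each, 612 of 653 comparisons kept the direction and the side of the threshold, 28 changed sign, 8 passed the threshold newly and 5 lost it, all 5 for *Pmepa1*. DESeq2 gave no adjusted p for 2 genes, *Cyp2j12* and *Slc12a3*, which are not counted for it. *Esr1* passed in all 12. Where a value did not hold, the cause was not tested. The count of genes called was 18 (9 higher, 9 lower). It was 191 with DESeq2 (97 higher, 94 lower), 106 with a minimum of 1 count in any sample (49 higher, 57 lower), 123 with the replicate block (69 higher, 54 lower) and 7 to 46 with a sample left out (2 to 26 higher, 5 to 20 lower), the highest without control 2 and the lowest without mutant 3. The pathway list had 1 call, against 2 with DESeq2, 0 with limma voom and 0 to 1 with a sample left out. With a sample left out, the log2 fold change ran from -0.21 to 0.10 for *Fstl4*, -0.22 to 0.033 for *Acvr1b*, -0.15 to 0.22 for *Acvr1c*, -0.91 to 0.90 for *Fshb*, -0.13 to 0.25 for *Sparc*, -0.15 to 0.25 for *Sparcl1*, -0.10 to 0.027 for *Ndufs4*, -0.12 to 0.0015 for *Mocs2*, -0.069 to 0.48 for *Itga2*, -0.070 to 0.13 for *Pdgfra*, -0.035 to 0.34 for *Rgs5*, -0.50 to 0.31 for *Dcn* and -0.26 to 1.01 for *Cga*. With limma voom it was 1.66 for *Fshb*, 0.29 for *Dcn* and 2.22 for *Cga*, and with the replicate block 0.31, 0.14 and 1.20. The replicate numbers were shared between genotypes. Same-numbered samples deviated together with r of 0.313, 0.0487 and 0.0189, the first the highest of all pairs, while control 2 correlated best with mutant 3 (r = 0.224). With 3 samples per genotype, these r cannot show whether same-numbered samples belong together, and pairing was not tested. The count of listed genes whose groups did not overlap, repeated with RLE-scaled and plain CPM after seeing the data, was 3 higher in both, and 5 and 4 lower. Depth limits *Fstl3* and the listed genes at a few counts.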
